A study of Danio rerio with 8 samples.

Results

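The mitosis genes are a fixed set of 54 gene symbols that cover entry into mitosis, chromosome condensation, the spindle and its attachment to chromosomes, the spindle checkpoint, the start of anaphase and cytokinesis. They were matched by name to a table of read counts, and 53 of the 54 symbols matched 54 of its 32520 gene identifiers. The symbol incenp was not analysed here. The symbol cks2 matched 2 identifiers, and prc1a and prc1b matched 2 identifiers that both carry the human-style name PRC1, so that which is which was not settled; these 4 are given with their identifiers. All 54 identifiers passed the filter on low counts and were among the 18549 genes tested. They were chosen by name and function and not by any value in these libraries, although earlier results of the same data were known.

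RNA was sequenced from cells sorted at 3 days post fertilisation from zebrafish (Danio rerio) embryos that carried Tg(fli1a:nEGFP), a nuclear green reporter of endothelium, and Tg(5.2lyve1b:DsRed), a red reporter of veins and lymphatic vessels. The sort kept cells with both colours, which the labels name VECs and LECs, venous and lymphatic endothelium. Embryos labelled ddx21 mutant gave 4 libraries and embryos labelled sibling gave 4, and all 8 had the same reporters, age and gate. The labels give neither the ddx21 allele nor the genotype of the siblings, and they do not say how many embryos went into a library. Both groups carry the replicate numbers 1 to 4. Nothing in the labels ties a number to a clutch or sort, so the p-values rest on a spread that may be partly technical. The product of ddx21 is an RNA helicase of the nucleolus that takes part in ribosome production, and the series title links it to signalling through p21, a brake on the cell cycle.

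A dividing cell builds up cyclins A and B before it enters mitosis. With their partner Cdk1 these cyclins drive chromosome condensation and spindle assembly, helped by the polo-like and Aurora kinases. The spindle checkpoint holds back the anaphase-promoting complex, a ubiquitin ligase, until every kinetochore is attached to microtubules; the complex then marks cyclin B and securin for destruction, sister chromatids part and the cell divides. Most of these transcripts build up in G2 and M phase and are low in cells that have left the cell cycle, and for this reason their level is widely used as a measure of how many cells of a sample are dividing. In such bulk samples fewer dividing cells and less RNA per dividing cell cannot be told apart.

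The libraries held from 38459219 to 51173007 reads. Levels are given as CPM, read counts divided by library size, with TMM scaling, and are not divided by transcript length, so they compare 1 gene between libraries and not genes with each other. The mutated gene ddx21 measured 233, 266, 170 and 217 CPM in mutants 1 to 4, against 245, 364, 337 and 301 CPM in siblings 1 to 4. Its log2 fold change was -0.50 (SE 0.21, 95% interval -0.96 to -0.03), in the direction of lower mutants. At every replicate number the mutant was below the sibling. In the edgeR quasi-likelihood test the unadjusted p of ddx21 was 0.039, and ddx21 was not called over all genes (adjusted p = 0.9995). All 18 identifiers of the endothelial markers were tested, and 15 of them had a log2 fold change below 0 (median -0.14, 0 called). Their summed level was 4201 to 12904 CPM in mutants and 5763 to 11406 CPM in siblings. In both groups it was lower in replicates 1 and 2 than in replicates 3 and 4. The 15 epidermal markers ran the other way and summed to 7227 to 83270 CPM in mutants and 4497 to 58882 CPM in siblings, higher in replicates 1 and 2 than in replicates 3 and 4 of both groups. Quality weights in limma were lowest for mutant 1, mutant 4 and sibling 4 (0.619, 0.486 and 0.449), which also had the fewest genes with a read. For genes in which 1 of these 3 libraries was far below the rest, and for some others, a second value is given. It is the log2 fold change without all 3, over 2 mutants and 3 siblings.

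No mitosis gene was called between mutants and siblings. At an adjusted p under 0.05 over all tested genes, edgeR called 0 of the 54 mitosis genes, against 0% of the 18549 genes tested, and the smallest adjusted p of a mitosis gene was 0.9995. At an unadjusted p under 0.05 it gave 0 of the 54, against 3.00% of all genes, and with the replicate number as a block again 0 of the 54, against 5.85%. DESeq2 also called 0 of the 54, against 0.337% of the genes to which it gave an adjusted p. At an adjusted p under 0.05 with the block the count was 0 of the 54 in edgeR, in DESeq2 and in limma-voom, against 0%, 2.84% and 0.221% of all genes. The 54 log2 fold changes, mutant over sibling, had a median of 0.10, against 0.003 over all genes tested, and 34 of the 54 were above 0 (32 with DESeq2 size factors and 30 from the deposited log2 values), against 50.2% of all genes. They ran from -0.81 for aurka to 0.71 for bub1ba, and 43 of the 54 were within 0.5 of 0 in either direction. The sign of the median depended on single libraries and on their weights: it was -0.06 without mutant 3, -0.05 without sibling 4, 0.26 without sibling 1 and -0.03 in limma-voom with quality weights. Without mutant 1, mutant 4 and sibling 4 together it was 0.13, again 0 of the 54 were called, and 10 of the 54 fold changes had the other sign.

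These calls leave room for sizeable differences in many genes. The 95% interval of the log2 fold change held 0 for all 54, but lay within 1 of 0 on both sides for only 15 of them. It reached past 1 for 32 genes and past -1 for 23. The standard error of a mitosis gene had a median of 0.43 and ran from 0.20 to 1.63, against a median of 0.66 over all genes. No matching by level was made between the mitosis genes and all genes. For no mitosis gene did all mutant libraries lie above or below all sibling libraries. Over all genes, 1.42% had every mutant above every sibling and 1.83% had every mutant below. With shares that low, 0 of 54 does not set the mitosis genes apart.

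**Figure D1:**
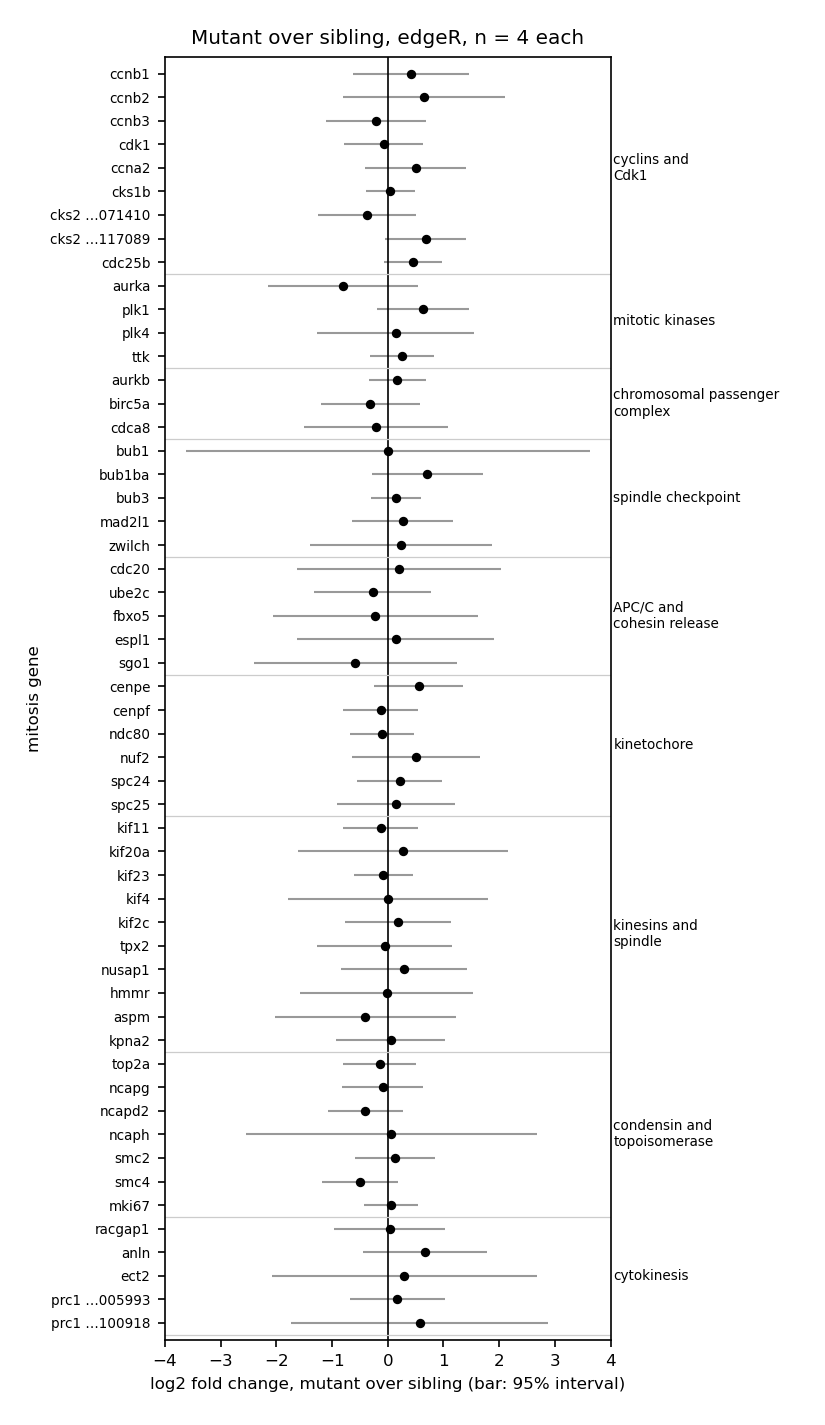
Log2 fold change, mutant over sibling, of the 54 mitosis genes (horizontal axis), with points for the edgeR estimates and bars for their 95% intervals (n = 4 libraries each), ordered by role. Every bar crosses 0, and the widest, of bub1, runs from -3.63 to 3.63.

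Among the cyclins and their kinase, 6 of 9 identifiers had a log2 fold change above 0 and 0 were called. Transcripts of ccnb1, which encodes cyclin B1, the main partner of Cdk1 at the entry into mitosis, measured 16.9, 21.2, 73.5 and 52.5 CPM in mutants 1 to 4, against 37.9, 29.5, 36.8 and 18.6 CPM in siblings 1 to 4. Mutant 1 was below every sibling, mutant 2 below 3 of them and mutants 3 and 4 above all of them. The log2 fold change was 0.42 (SE 0.47), and 0.46 without mutants 1 and 4 and sibling 4. The kinase gene cdk1 itself measured 61.9, 76.6, 149 and 119 CPM in mutants and 142, 78.9, 125 and 83.4 CPM in siblings, with a log2 fold change of -0.08 (SE 0.32). The gene of cyclin A2, ccna2, which acts in S phase and G2, measured 65.7, 47.6, 114 and 98.1 CPM in mutants and 98.7, 40.0, 63.5 and 27.8 CPM in siblings (log2 fold change 0.50, SE 0.41, and 0.27 without mutants 1 and 4 and sibling 4). The groups overlapped for all 3, with mutants 3 and 4 the highest mutants in each.

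The smallest unadjusted p of any mitosis gene, 0.066 (edgeR, adjusted p = 0.9995), belonged to cks2 ENSDARG00000117089, which encodes a small subunit bound to cyclin-dependent kinases. It measured 42.7, 30.4, 36.7 and 19.0 CPM in mutants and 26.0, 17.3, 13.8 and 23.4 CPM in siblings, with 3 of the 4 mutants above every sibling. Its log2 fold change was 0.68 (SE 0.33), and 0.83 without mutants 1 and 4 and sibling 4. The other identifier, cks2 ENSDARG00000071410, measured 8.53 to 19.6 CPM in mutants and 11.4 to 26.4 CPM in siblings, with a log2 fold change of -0.38 (SE 0.39). Whether reads were split between the 2 identifiers in the counting was not tested, nor was the difference between them. The gene cdc25b, whose phosphatase product removes the inhibitory phosphate from Cdk1, measured 43.5, 28.3, 38.9 and 31.7 CPM in mutants and 28.6, 27.6, 25.4 and 22.4 CPM in siblings. Mutant 2 alone fell within the range of the siblings, and the log2 fold change was 0.45 (SE 0.24, edgeR unadjusted p = 0.086). It was 0.32 without mutants 1 and 4 and sibling 4. The remaining genes of the group, ccnb2, ccnb3 and cks1b, had log2 fold changes of 0.66 (SE 0.65), -0.22 (SE 0.40) and 0.05 (SE 0.20). Without mutants 1 and 4 and sibling 4, ccnb2 was at 0.05 and ccnb3 at 0.02, the latter of the other sign. For cks1b, a sister gene of cks2, the level was 60.2 to 68.8 CPM in mutants and 51.9 to 79.9 CPM in siblings, the smallest ratio of highest to lowest library among the 54.

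**Figure D2:**
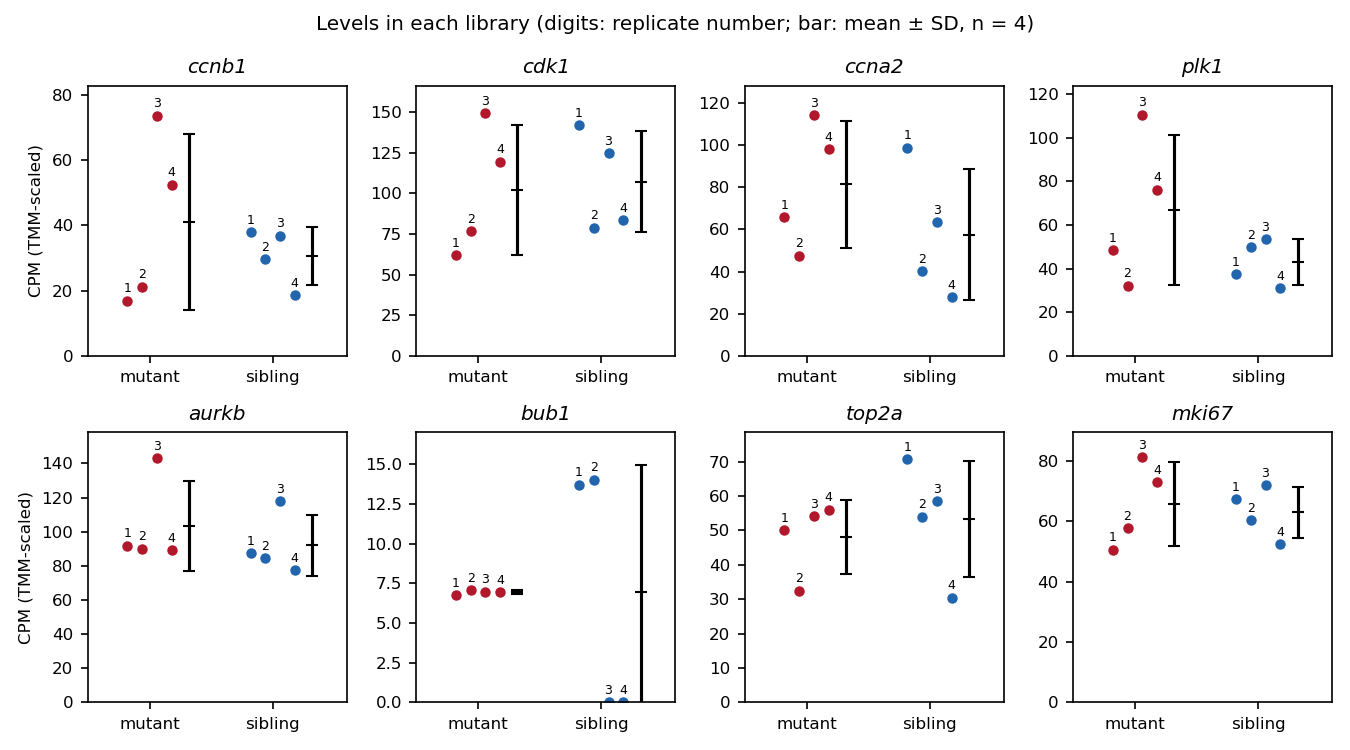
Level in CPM (vertical axes, TMM-scaled, linear, from 0) of 8 mitosis genes in each of the 4 mutant and 4 sibling libraries, numbered by replicate, with the mean ± SD beside them (n = 4; the bar of bub1 in siblings is drawn down to 0). Mutant 3 is the highest mutant for ccnb1, cdk1, ccna2, plk1, aurkb and mki67, and bub1 has 0 reads in siblings 3 and 4.

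The mitotic kinases went both ways, with 3 of 4 above 0 and 0 called. The lowest log2 fold change of all the mitosis genes was that of aurka, which encodes the Aurora kinase of the spindle poles, at -0.81 (SE 0.60). It measured 5.27, 20.2, 19.5 and 3.85 CPM in mutants and 29.2, 8.56, 26.8 and 20.8 CPM in siblings. Mutants 1 and 4 were the low libraries, and mutants 2 and 3 lay within the range of the siblings. Without mutants 1 and 4 and sibling 4 the value was -0.11. The polo-like kinase gene plk1, whose product acts in centrosome maturation and mitotic entry, measured 48.3, 32.2, 111 and 76.1 CPM in mutants and 37.5, 49.9, 53.5 and 31.0 CPM in siblings, a log2 fold change of 0.64 (SE 0.37). Here mutants 3 and 4 were above every sibling, and without mutants 1 and 4 and sibling 4 the value was 0.61. The centriole duplication kinase plk4 was at 6.54 to 28.0 CPM in mutants and 4.81 to 29.0 CPM in siblings. Its log2 fold change was 0.14 (SE 0.63), and -0.44 without mutants 1 and 4 and sibling 4. The checkpoint kinase ttk was at 26.8 to 46.8 CPM in mutants and 25.2 to 34.7 CPM in siblings (log2 fold change 0.26, SE 0.26).

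The chromosomal passenger complex, which corrects faulty attachments at the centromere and later acts at the midzone, was represented by 3 genes, of which 1 was above 0 and 0 were called. Its kinase gene aurkb measured 91.8, 90.0, 143 and 89.1 CPM in mutants and 87.6, 84.6, 118 and 77.4 CPM in siblings, with a log2 fold change of 0.17 (SE 0.23). Replicate 3 was the highest library in both groups. The survivin gene birc5a showed the same replicate on top, with 12.8, 15.1, 25.4 and 11.1 CPM in mutants and 19.99, 18.5, 30.6 and 10.9 CPM in siblings. Its log2 fold change was -0.31 (SE 0.40). Borealin, encoded by cdca8, ranged from 6.66 CPM in mutant 1 to 61.7 CPM in mutant 3, against 20.7 to 37.3 CPM in siblings, so that the mutants held both extremes; its log2 fold change was -0.21 (SE 0.58) in all libraries and 0.33 without the 3.

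All 5 spindle checkpoint genes had a log2 fold change above 0, that of bub1 at 0.0003 and below 0 with DESeq2 size factors, and 0 were called. The kinase gene bub1 measured 6.78, 7.06, 6.98 and 6.94 CPM in mutants, and 13.7 and 14.0 CPM in siblings 1 and 2, while siblings 3 and 4 had 0 reads, which allows up to 0.0611 and 0.0644 CPM (3 reads, counting error only). The means of the groups were thus both 6.94 CPM, with an SD of 0.117 in mutants and 8.01 in siblings, and the SE of the fold change was 1.63. Without the 3 libraries the log2 fold change was -0.38. In edgeR with the replicate number as a block, bub1 was at 3.42 (SE 1.77, unadjusted p = 0.38), so its estimate depended on the model. Its relative bub1ba, which encodes the checkpoint protein BubR1, had the highest log2 fold change of the 54, at 0.71 (SE 0.45), with 15.6, 8.49, 17.3 and 20.9 CPM in mutants and 8.17, 14.996, 9.97 and 4.81 CPM in siblings. Mutants 1, 3 and 4 were above every sibling and mutant 2 was within their range. For bub1ba the log2 fold change without the 3 libraries was 0.24. The partner of both, bub3, varied little, with 68.2, 56.7, 85.0 and 54.6 CPM in mutants and 58.5, 59.6, 61.9 and 58.9 CPM in siblings (log2 fold change 0.15, SE 0.20). The gene zwilch, part of a complex that brings checkpoint proteins and dynein to kinetochores, measured 13.2, 4.31, 3.43 and 3.53 CPM in mutants and 6.75, 8.95, 2.06 and 2.94 CPM in siblings. In it mutant 1 stood above all other libraries, and the log2 fold change was 0.24 (SE 0.74) with all libraries and -0.59 without the 3. The checkpoint protein gene mad2l1 measured 18.3 to 59.5 CPM in mutants and 22.4 to 43.9 CPM in siblings (log2 fold change 0.27, SE 0.41).

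Of the 5 genes of the anaphase-promoting complex (APC/C) and of cohesin release, 2 were above 0 and 0 were called, with fbxo5 and espl1 changing sign in the deposited log2 values. The gene ube2c, which encodes the ubiquitin-conjugating enzyme of the complex, measured 17.1, 24.3, 78.8 and 24.2 CPM in mutants and 49.8, 35.4, 58.4 and 30.8 CPM in siblings, with a log2 fold change of -0.27 (SE 0.47). Mutant 3 was above every sibling and the other 3 mutants were below every sibling. The shugoshin gene sgo1, whose product protects centromeric cohesin, measured 2.35, 11.1, 21.7 and 1.09 CPM in mutants and 13.4, 16.5, 18.2 and 6.19 CPM in siblings, with a log2 fold change of -0.58 (SE 0.82). Again mutant 3 was the highest library, and mutants 1 and 4 were the lowest. Without the 3 libraries the values were 0.05 for sgo1 and 0.12 for ube2c, both of the other sign. The APC/C activator gene cdc20 was at 7.45 to 41.7 CPM in mutants, and at 22.5 to 35.3 CPM in siblings 1 to 3 against 0.924 CPM in sibling 4. Log2 fold changes were 0.20 (SE 0.82) for cdc20, -0.23 (SE 0.83) for the APC/C inhibitor gene fbxo5 and 0.14 (SE 0.79) for espl1, which encodes separase; without the 3 libraries they were 0.20, -0.26 and 0.66.

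Kinetochore genes were above 0 for 4 of 6, with 0 called. The motor gene cenpe, whose kinesin product moves chromosomes to the spindle equator, measured 24.6, 16.9, 28.5 and 17.5 CPM in mutants and 15.2, 11.7, 23.0 and 9.77 CPM in siblings. It was higher in the mutant of every replicate number, though the groups overlapped. Its log2 fold change was 0.55 (SE 0.36), and 0.46 without mutants 1 and 4 and sibling 4. Within the Ndc80 complex, the microtubule attachment site of the kinetochore, nuf2 measured 11.1, 20.2, 25.3 and 30.3 CPM in mutants and 16.3, 22.5, 18.5 and 3.91 CPM in siblings, with a log2 fold change of 0.51 (SE 0.52). Its partner spc25 measured 22.8, 23.3, 46.9 and 17.4 CPM in mutants and 31.9, 21.1, 38.5 and 8.46 CPM in siblings (log2 fold change 0.14, SE 0.48). In spc25 replicate 3 was the highest and replicate 4 the lowest library of both groups. For nuf2 the log2 fold change was 0.26 without mutants 1 and 4 and sibling 4. The other 2 subunits, ndc80 and spc24, had log2 fold changes of -0.10 (SE 0.26) and 0.21 (SE 0.34), and cenpf, a large outer kinetochore protein, -0.13 (SE 0.30).

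For kinesins and spindle proteins, 5 of 10 were above 0 (4 with DESeq2 size factors and 3 from the deposited log2 values) and 0 were called. The gene nusap1, which encodes a microtubule-binding protein, measured 19.2, 37.2, 102 and 48.3 CPM in mutants and 49.3, 37.2, 63.8 and 19.0 CPM in siblings, with a log2 fold change of 0.29 (SE 0.51). This value rested on mutant 3: without it the log2 fold change was -0.28. The same held for kpna2, an importin that binds spindle assembly factors, with 189, 173, 598 and 329 CPM in mutants and 318, 310, 463 and 153 CPM in siblings, and a log2 fold change of 0.05 (SE 0.44) with mutant 3 and -0.43 without it. The spindle pole gene aspm measured 1.82, 18.5, 36.6 and 52.0 CPM in mutants and 33.6, 19.6, 42.0 and 49.2 CPM in siblings, with mutant 1 far below the other 7 libraries (log2 fold change -0.41, SE 0.73, and -0.19 without the 3 libraries). Mutant 1 was also the lowest library for kif4, a chromosome-bound kinesin at 0.743 CPM, against 7.94 to 19.9 CPM in the other mutants and 3.64 to 14.4 CPM in siblings. The same library was lowest for kif2c, a kinesin that takes microtubules apart, at 12.7 CPM against 33.2 to 64.1 CPM in the other mutants and 27.9 to 44.6 CPM in siblings. It was also lowest for tpx2, the activator of Aurora A, at 10.1 CPM against 26.4 to 77.5 CPM in the other mutants and 19.5 to 52.5 CPM in siblings. Log2 fold changes in all libraries were 0.01 (SE 0.80) for kif4, 0.19 (SE 0.43) for kif2c and -0.06 (SE 0.54) for tpx2, and without the 3 libraries -0.09, 0.44 and 0.15. The kinesin gene kif20a measured 30.6, 19.1 and 29.5 CPM in mutants 1 to 3 and 0.448 CPM in mutant 4, against 9.75 to 20.9 CPM in siblings (log2 fold change 0.27, SE 0.85, and 0.38 without the 3 libraries). Log2 fold changes of kif11, the motor that pushes spindle poles apart, and kif23, a motor of the midzone, were -0.13 (SE 0.30) and -0.08 (SE 0.23), and that of hmmr, a spindle pole protein, was -0.02 (SE 0.70), or -0.62 without the 3 libraries.

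Condensin and chromosome genes were above 0 for 3 of 7 (2 from the deposited log2 values), with 0 called. The gene of topoisomerase II alpha, top2a, which untangles sister chromatids, measured 49.97, 32.5, 54.2 and 56.0 CPM in mutants and 70.6, 54.0, 58.5 and 30.4 CPM in siblings (log2 fold change -0.15, SE 0.29, and -0.48 without mutants 1 and 4 and sibling 4). The proliferation marker mki67, whose product coats mitotic chromosomes, measured 50.6, 57.7, 81.2 and 73.0 CPM in mutants and 67.4, 60.3, 71.9 and 52.5 CPM in siblings (log2 fold change 0.06, SE 0.22). Its 95% interval ran from -0.43 to 0.54, among the narrowest of the set. Of the condensin subunits, smc4 measured 20.6, 37.0, 39.3 and 19.6 CPM in mutants and 52.98, 39.2, 40.5 and 31.9 CPM in siblings, and ncapd2 measured 16.0, 26.5, 31.7 and 43.0 CPM in mutants and 44.0, 34.8, 35.7 and 40.4 CPM in siblings. Their log2 fold changes were -0.50 (SE 0.31) and -0.40 (SE 0.30), with mutants 1 and 4 low for smc4 and mutants 1 to 3 low for ncapd2. Without the 3 libraries they were -0.20 and -0.38. For ncapg the level was 39.7, 17.6, 28.8 and 35.9 CPM in mutants and 47.7, 25.3, 30.9 and 26.0 CPM in siblings (log2 fold change -0.09, SE 0.33, and -0.57 without the 3 libraries). For the core subunit gene smc2 the log2 fold change was 0.14 (SE 0.32), and -0.21 without the 3 libraries. The kleisin gene ncaph had 0 reads in mutant 1, which allows up to 0.0719 CPM, against 19.1 to 35.2 CPM in the other mutants and 12.7 to 24.5 CPM in siblings (log2 fold change 0.06, SE 1.16, and 0.39 without the 3 libraries).

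All 5 cytokinesis identifiers had a log2 fold change above 0 (4 from the deposited log2 values, without racgap1) and 0 were called. The gene anln, which encodes the contractile ring protein anillin, measured 13.4, 9.48, 28.8 and 16.2 CPM in mutants and 16.5, 12.4, 9.83 and 4.15 CPM in siblings, with a log2 fold change of 0.67 (SE 0.50). Only mutant 3 was above every sibling, and without the 3 libraries the log2 fold change was 0.58. The midzone crosslinker prc1 ENSDARG00000005993 measured 38.1, 44.3, 92.1 and 47.0 CPM in mutants and 45.8, 23.5, 69.8 and 57.1 CPM in siblings (log2 fold change 0.17, SE 0.38, and 0.56 without the 3 libraries), and replicate 3 was again on top in both groups. The other identifier of that name, prc1 ENSDARG00000100918, measured 11.3, 27.0, 29.5 and 25.6 CPM in mutants and 19.1, 12.4, 31.2 and 0.0644 CPM in siblings (log2 fold change 0.57, SE 1.03, and 0.44 without the 3 libraries). The gene ect2, an activator of the small GTPase RhoA at the cleavage furrow, was at 0.263 CPM in mutant 1 and 0.773 CPM in sibling 4, against 12.6 to 26.1 CPM in the other mutants and 11.7 to 15.8 CPM in the other siblings (log2 fold change 0.30, SE 1.07, and 0.52 without the 3 libraries). For racgap1, which works with kif23 at the midzone, the log2 fold change was 0.03 (SE 0.45).

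**Figure D3:**
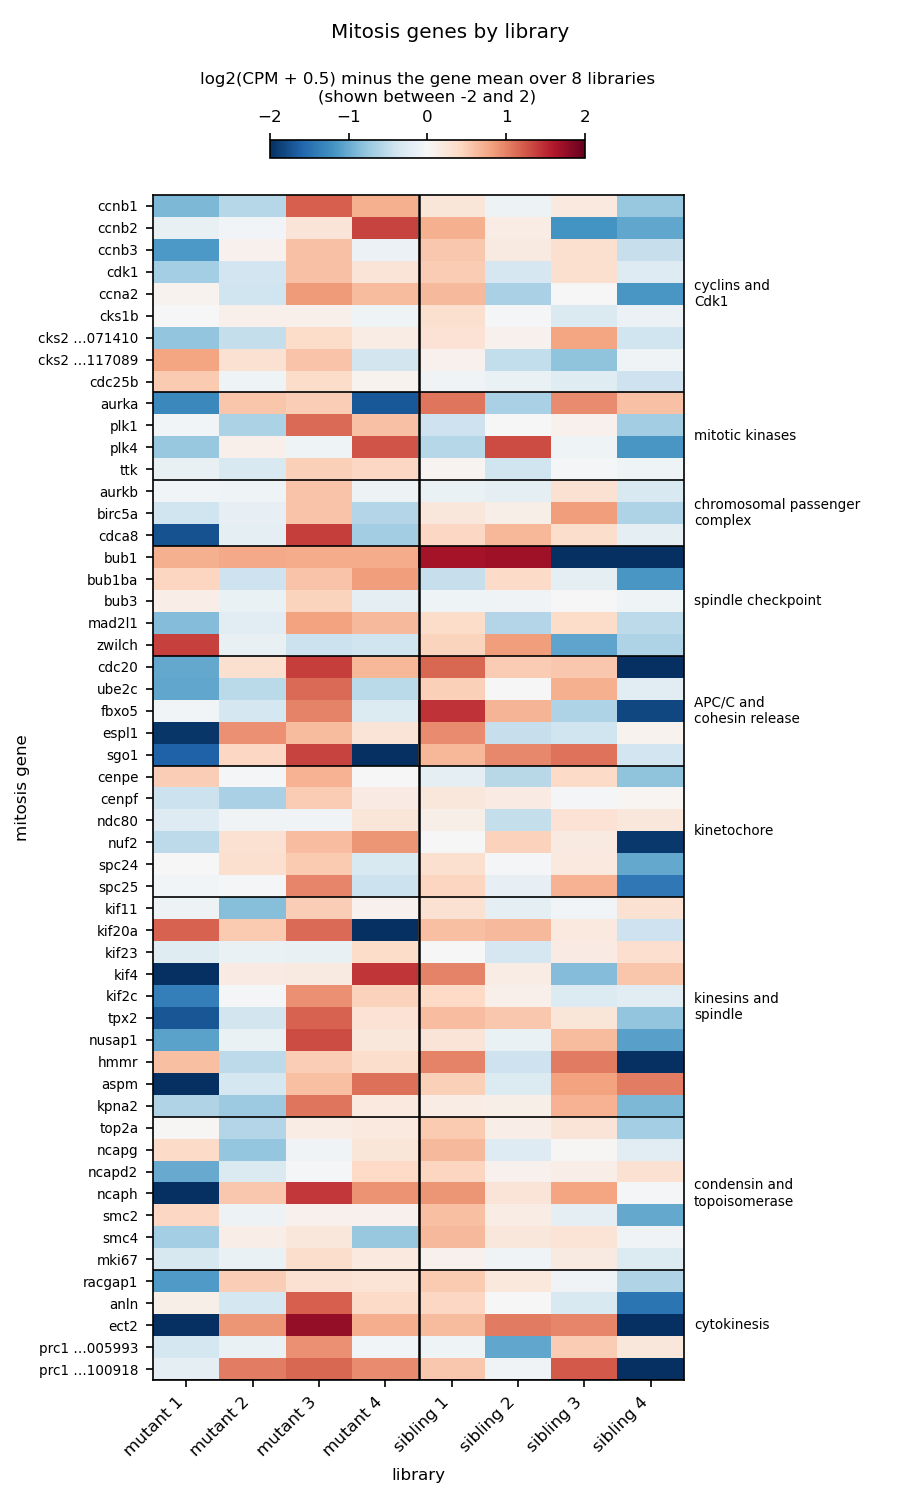
Level of each of the 54 mitosis genes (rows, ordered by role) in each library (columns), as log2(CPM + 0.5) minus the mean of the gene over the 8 libraries, with colours cut off at -2 and 2. Mutant 3 is mostly red, mutant 1 and sibling 4 mostly blue, and single dark blue cells mark genes near 0 in 1 library.

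Single libraries stood high or low for many mitosis genes at once. As a median over the 54 genes, log2(CPM + 0.5) deviated from the gene's own mean by -0.34, -0.13, 0.58 and 0.24 in mutants 1 to 4 and by 0.42, 0.00, 0.20 and -0.44 in siblings 1 to 4. Their summed level was 1470, 1573, 3031 and 2122 CPM in mutants and 2271, 1812, 2274 and 1372 CPM in siblings. Mutant 3 was the highest library for 27 of the 54 genes (50%), against 11.4% of all genes tested, and the lowest for none of them. Sibling 4 was the lowest for 20 and mutant 1 for 17, against 16.6% and 17.96% of all genes. The high end was thus a mutant, and the low end a sibling and a mutant.

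In 10 of the 54 genes at least 1 library was below 0.1 times the median of the other 7 libraries. In mutant 1 these were aspm, ect2, kif4 and ncaph, in mutant 4 kif20a and sgo1, in sibling 3 bub1, and in sibling 4 bub1, cdc20, ect2, hmmr and prc1 ENSDARG00000100918. Such low values were more frequent over all genes: 14.9% of the genes tested were that low in mutant 1, 17.4% in mutant 4 and 18.02% in sibling 4, against 7.41%, 3.70% and 9.26% of the mitosis genes. In mutants 2 and 3 and siblings 1 and 2 no mitosis gene was that low. Mutant 1, mutant 4 and sibling 4 also had fewer genes with a read (19366, 18051 and 18064, against 21623 to 25329 in the 5 others), and what part that plays in the low values was not tested. From the lowest to the highest library the mitosis genes differed by a median of 4.01-fold, against 6.17-fold over all genes, and 8 of the 54 by under 2-fold, among them cks1b, bub3 and mki67. In these comparisons the mitosis genes were not matched by level with the other genes tested.

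Libraries were paired by replicate number, though the labels do not say what a number shares. Over all genes, the deviations of same-numbered mutants and siblings from their group means correlated at r = 0.22, 0.28, 0.18 and 0.30. Other combinations ran from -0.27 to 0.15. Across the 54 mitosis genes the values of same-numbered libraries were -0.01, 0.00, 0.36 and 0.03 for numbers 1 to 4. Each was taken across genes of 1 library pair and is given as a description. Within pairs, 9 of the 54 genes were higher in the mutant of pair 1, 19 in that of pair 2, 41 in that of pair 3 and 44 in that of pair 4, against 45.4%, 50.9%, 50.4% and 46.2% of all genes. The median within-pair difference in log2(CPM + 0.5), mutant minus sibling, was -0.64, -0.11, 0.43 and 0.62 for pairs 1 to 4, while over all genes it was -0.10, 0.01, 0.01 and 0. So pairs 1 and 2 leaned to the sibling and pairs 3 and 4 to the mutant. The medians of pair 1 set a mutant at a deviation of -0.34 against a sibling at 0.42, and those of pair 4 a mutant at 0.24 against a sibling at -0.44.

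Genes with the same direction in all 4 pairs were few. Only cdc25b, aurkb and cenpe were higher in every mutant than in its paired sibling, 3 of 54 against 8% of all genes. Only smc4, 1 of 54, was lower in every mutant. Of all genes, 9.53% were higher in no mutant, a share that includes ties. The largest number, 23 of 54, were higher in 2 pairs and lower in the other 2. In aurkb the within-pair values were 91.8 against 87.6, 90.0 against 84.6, 143 against 118 and 89.1 against 77.4 CPM, mutant against sibling, so all 4 differences were small.

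**Figure D4:**
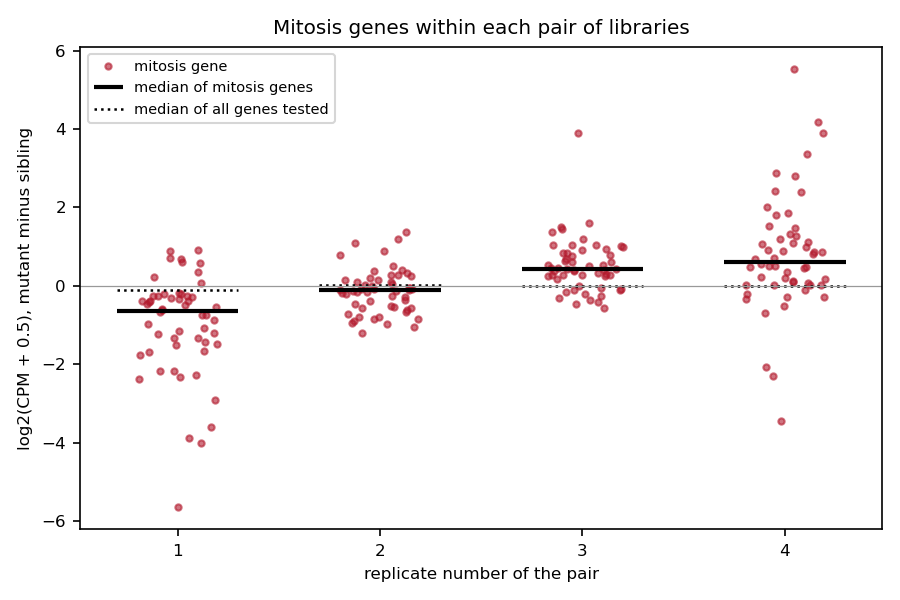
Difference in log2(CPM + 0.5), mutant minus sibling (vertical axis), for each of the 54 mitosis genes (points) within each pair of same-numbered libraries (horizontal axis); thick lines are their medians and dotted lines the medians of all genes tested. The thick lines lie at -0.64, -0.11, 0.43 and 0.62, and the dotted ones between -0.10 and 0.01.

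Differences between the replicate numbers were tested in a fit that also held the group. Of all genes tested 1.19% were called (220 genes), but 0 of the 54 mitosis genes, with a smallest adjusted p of 0.34. At an unadjusted p under 0.05 there were 3 mitosis genes, aurkb, spc25 and prc1 ENSDARG00000005993, against 12.3% of all genes. In all 3, replicate 3 was the highest library of each group. DESeq2 called 12.9% of the genes it gave an adjusted p and again 0 of the 54, with a smallest adjusted p of 0.056.

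Further genes of the cell cycle were drawn up as 4 lists, likewise with earlier results known. Of 84 other mitosis genes tested, 44 had a log2 fold change above 0, with a median of 0.04 and 0 called; at an unadjusted p under 0.05 there were 2 higher and 1 lower, 3 of 84 against 3.00% of all genes, and with the block 4 higher and 2 lower, against 5.85%. In the fit without the block those higher were rcc1, which encodes the exchange factor of the GTPase Ran on chromatin, with 198, 130, 145 and 109 CPM in mutants and 81.2, 108, 75.0 and 86.8 CPM in siblings, and the kinetochore gene dsn1, with 48.9, 29.1, 34.9 and 47.9 CPM in mutants and 28.4, 20.9, 26.9 and 21.4 CPM in siblings. In both, every mutant was above every sibling, as in 1.42% of all genes, with log2 fold changes of 0.73 (SE 0.23) and 0.72 (SE 0.26). The centriole gene stil was the lower one, at 0.0240, 0.295, 0.0191 and 0 CPM in mutants and 4.83, 0.467, 2.26 and 3.82 CPM in siblings. For stil every mutant was below every sibling, as in 1.83% of all genes. Its log2 fold change, at low levels in both groups, was the lowest of the list, at -5.04. None of these 3 was called over all genes.

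Genes of DNA replication and S phase gave 44 of 67 above 0, a median of 0.16 and 0 called. At an unadjusted p under 0.05 there were 0 higher and 1 lower, against 3.00% of all genes, and with the replicate number as a block 8 higher and 2 lower, against 5.85%, and 0 were called with the block. The gene lower in both fits was prim1, which encodes the primase subunit, with 5.92, 18.1, 13.9 and 10.3 CPM in mutants and 23.0, 23.0, 30.3 and 17.03 CPM in siblings (log2 fold change -0.95, SE 0.39). Next by p were orc3, of the origin recognition complex, and dbf4, which activates the replication kinase Cdc7, with log2 fold changes of 0.88 (SE 0.40) and 1.35 (SE 0.61). In orc3 sibling 4 was at 14.3 CPM, against 50.6 to 65.3 CPM in the other siblings. The libraries stood in another order than for mitosis: the median deviation of the S phase genes was 0.47, 0.15, 0.09 and -0.29 in mutants 1 to 4 and 0.33, 0.17, -0.29 and -0.49 in siblings 1 to 4. Mutant 1 was the highest library for the S phase list and among the lowest for the mitosis genes. The endothelial markers deviated by -0.86, -0.36, 0.20 and 0.61 in mutants and by -0.34, -0.35, 0.56 and 0.65 in siblings. Epidermal markers did so by 1.28, 1.77, -0.49 and -1.47 in mutants and by 0.81, 1.33, -0.73 and -2.69 in siblings. Markers of further cell types also differed between libraries. Those of exocrine pancreas and gut summed to 52409 CPM in sibling 4 and to 1465 CPM or less in every other library. All 13 of these had a log2 fold change below 0. Liver and yolk markers had a log2 fold change below 0 for 15 of 16 tested, with a median of -3.09. For 12 of the 16 every mutant was below every sibling, as in 1.83% of all genes, and 0 were called by edgeR. Muscle markers were above 0 for 14 of 15, against 50.2% of all genes above 0. Venous and lymphatic markers were below 0 for 12 of 16, with a median of -0.27 and 0 called. At an unadjusted p under 0.05, edgeR gave 2 of these 16, both lower, against 3.00% of all genes. The part of any cell type in the level of the cell cycle genes was not tested.

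**Figure D5:**
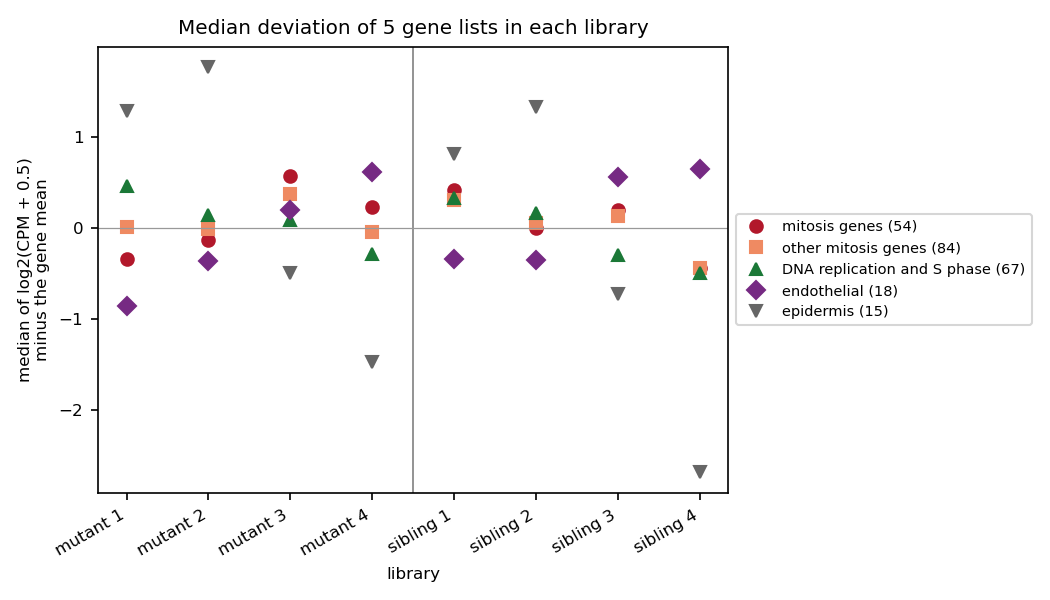
Median deviation of log2(CPM + 0.5) from the gene mean (vertical axis) in each library (horizontal axis) for the mitosis genes, 2 further cell cycle lists and the markers of endothelium and epidermis. Mitosis genes peak in mutant 3 at 0.58 and S phase genes in mutant 1 at 0.47, and epidermal markers lie above 0 in replicates 1 and 2 and below 0 in replicates 3 and 4 of both groups.

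Transcriptional regulators of G2 and M genes gave 19 of 25 above 0, a median log2 fold change of 0.19 and 0 called. The transcription factor gene foxm1, which drives cyclin B and many of the mitosis genes, measured 4.72, 2.29, 6.96 and 4.61 CPM in mutants and 4.13, 4.06, 3.48 and 8.72 CPM in siblings (log2 fold change -0.13, SE 0.65). At an unadjusted p under 0.05 there was 1 gene of 25, against 3.00% of all genes, and with the block again 1, against 5.85%. In both fits it was e2f3, an E2F factor of the G1 to S transition (log2 fold change 0.84, SE 0.28). It measured 18.5, 33.7, 25.3 and 28.5 CPM in mutants and 17.2, 14.0, 14.1 and 13.9 CPM in siblings. Every mutant was above every sibling, as in 1.42% of all genes. The retinoblastoma genes rb1 and rbl2, which hold E2F factors back, followed with 0.54 (SE 0.26) and 1.31 (SE 0.76).

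The list of cell cycle inhibitors and stress genes held 15 tested identifiers, of which 8 were above 0, with a median log2 fold change of 0.28 and 0 called by edgeR. At an unadjusted p under 0.05 there were 3 higher and 0 lower, against 3.00% of all genes, and with the replicate number as a block 4 higher and 3 lower, against 5.85%, with 0 called. The 4 higher with the block were ccng1, mdm2, 1 GADD45A identifier and cdkn1a. The 3 lower, named after their values were seen, were mdm4, CDKN1B ENSDARG00000054271 and the other GADD45A identifier. Their log2 fold changes in that fit were -0.78, -0.43 and -0.42. CDKN1B is a human-style name carried by 2 identifiers, and which of them is cdkn1ba and which cdkn1bb was not settled. The inhibitor gene cdkn2c, also named after its values were seen, was lower in every mutant than in every sibling, as were 1.83% of all genes, with 0, 2.86, 2.23 and 1.31 CPM in mutants and 10.04, 11.4, 10.8 and 4.68 CPM in siblings (unadjusted p = 0.059 without the block). The cyclin G1 gene ccng1 measured 804, 789, 556 and 557 CPM in mutants and 194, 297, 164 and 107 CPM in siblings, with a log2 fold change of 1.83 (SE 0.30). The ubiquitin ligase gene mdm2 measured 99.3, 108, 96.3 and 94.3 CPM in mutants and 29.7, 57.8, 50.7 and 54.4 CPM in siblings, with a log2 fold change of 1.05 (SE 0.23). In both, every mutant was above every sibling, as in 1.42% of all genes. DESeq2 called both (adjusted p = 7.4e-05 for ccng1 and 0.030 for mdm2), against 0.337% of the genes to which it gave an adjusted p. The stress response gene GADD45A ENSDARG00000043581, 1 of 2 identifiers with that human-style name, measured 116, 85.6, 39.96 and 32.7 CPM in mutants and 34.4, 26.2, 20.4 and 9.71 CPM in siblings (log2 fold change 1.597, SE 0.47), and mutant 4 fell within the range of the siblings. The inhibitor gene cdkn1a, which encodes p21, a brake on cyclin-dependent kinases, measured 172, 152, 248 and 206 CPM in mutants and 79.9, 90.0, 192 and 146 CPM in siblings. It was higher in the mutant of all 4 pairs while the groups overlapped, with a log2 fold change of 0.62 (SE 0.30, unadjusted p = 0.068). Beside these values the mitosis genes had a median of 0.10 in the same fit; the difference between the lists was not tested.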

How the data were processed

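RNA sequencing counts per Ensembl gene were deposited by the authors as raw whole numbers for 32520 genes in 8 libraries (4 mutant, 4 sibling). The submitters' processing notes name the build GRCz11 and list Subread 2.0.0 beside featureCounts, FastQC and edgeR. Strand setting and annotation release were not given in the sources used here, so reads of overlapping, antisense and paralogous genes may be split. The authors also deposited log2 CPM values labelled as normalised and batch-corrected. All 260160 of them equalled log2(CPM + 1) computed from the counts (tolerance 1e-09), so they hold no batch correction, and they served as an alternative only.

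Counts were filtered (filterByExpr by group, minimum count 10, minimum total 15), given TMM factors and passed to the robust quasi-likelihood fit of edgeR 4.0.16 (R 4.3.3), whose 1 term was the group, with Benjamini-Hochberg adjustment over 18549 genes. Standard errors and 95% intervals of log2 fold changes came from the fitted coefficients and the moderated dispersion. CPM are of scaled library sizes, except sums of cell type markers, which use library totals. The scripts were tested on simulated data. DESeq2 1.42.0 and limma 3.58.1, the replicate number as a block, other scalings and filters, and fits without single libraries were alternatives. So was the fit without mutants 1 and 4 and sibling 4. These 3 libraries had the lowest quality weights, which come from these same data. DESeq2 and limma-voom with the block were added after the data had been seen.

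Same-group libraries differed by far more than counting noise, at a chi-square of 112 to 852 per degree of freedom. Depth was 38459219 to 51173007 reads, so the spread between libraries (median trended dispersion 0.61), and not counting, limits precision. Each library was numbered as in its title. Same-numbered libraries were treated as pairs because all 4 correlations of their deviations over all genes exceeded 0.1. They ran from 0.18 to 0.30, and other combinations from -0.27 to 0.15. This rule does not establish the pairing. Mutant 1 with sibling 2 and mutant 2 with sibling 1, at 0.154 and 0.150, passed it too. Across the mitosis genes, only number 3 among the same-numbered libraries exceeded 0.1, at 0.36.

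The mitosis genes and all lists were chosen with earlier results of these data known. Names came from a gene name table and from hand-checked aliases (BIRC5 for birc5a, KIF4A for kif4 and PRC1 for prc1a and prc1b). In the further lists and the cell type markers, some symbols ending in a or b had no match of their own. These took every identifier with the human-style name, so which paralogue such an identifier is was not settled. Genes with values in every library were 8 preset mitosis genes, in each role the 2 with the smallest p for the group and the 1 with the smallest p for the replicate number, ddx21, cdkn1a, foxm1 and the 3 with the smallest p in each further list; others near 0 in a library were picked once their values were known. Of the genes picked by these rules, orc3, dbf4, rb1 and rbl2 are given with the log2 fold change and SE in place of values in every library. Sequences and coordinates were not used here. For 1 gene of a further list the result is not reported here.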

Additional observations from a re-analysis of the deposited data

Results flagged for a closer look

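The check covered 88 groups of 4 libraries, from the 29 mitosis genes and 15 other genes picked by the rule for values in every library. Of these groups 6 held a library that stood apart from the other 3 by Dixon's criterion at 95%. Chance gives about 1 in 20. The remaining mitosis genes were not checked in this way. For aurkb, mutant 3 measured 143 CPM and the other mutants 89.1 to 91.8 CPM. For zwilch, mutant 1 measured 13.2 CPM and the others 3.43 to 4.31 CPM. For prc1 ENSDARG00000100918, mutant 1 measured 11.3 CPM and the others 25.6 to 29.5 CPM. In stil, mutant 2 was at 0.295 CPM and the other mutants at 0 to 0.0240 CPM. In orc3, sibling 4 was at 14.3 CPM and the other siblings at 50.6 to 65.3 CPM. In e2f3, sibling 1 was at 17.2 CPM and the other siblings at 13.9 to 14.1 CPM.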

How the results depend on the processing

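In all alternatives run, 0 of the 54 mitosis genes were called, for the group and for the replicate number. Over all genes the count was 0, and came to 1 with no filter on low counts, 1 in limma-trend on the deposited log2 values and 62 in DESeq2. With the replicate block, edgeR called 0 genes and the median of the mitosis genes was 0.10; DESeq2 with the block called 526 genes and limma-voom with the block 41. The block changed no call of a mitosis gene. At an unadjusted p under 0.05, DESeq2 with the block gave 2 of the 54, bub1 and sgo1, against 2321 of the 18549 genes tested. Limma-voom with the block gave 1 of the 54, cks2 ENSDARG00000117089, against 1441 of the 18549. Genes differing between replicate numbers (220) came to 573 with no filter, 2160 in DESeq2 and 438 in limma-voom, and to 26 to 264 without 1 library; the lowest, 26, was without mutant 3, and 52, 59, 56, 47 and 37 were found without mutants 1 and 2 and siblings 1, 2 and 3. The median log2 fold change of the mitosis genes was -0.06 to 0.26 without 1 library and -0.03 in limma-voom; that of the S phase genes was 0.03 to 0.32 without 1 library. Of 29 named mitosis genes 15 kept their sign in all 15 alternatives. Of these 29, those that reversed by more than their standard error were zwilch, nusap1 and kpna2. The value of zwilch was -0.59 without mutants 1 and 4 and sibling 4. Without mutant 3, nusap1 was at -0.28 and kpna2 at -0.43. The remaining mitosis genes were not part of this count. Without 1 library nusap1 ran from -0.28 to 0.57 and kpna2 from -0.43 to 0.30. Of the other named genes, ccng1 and mdm2 were called in at least 1 alternative. The causes were not tested.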
